A study of Mus musculus with 9 samples.

Results

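The insulin-like growth factor (IGF) system was examined in mouse calvarial cells during osteoblast differentiation. It was taken as 10 of the 40548 genes in the expression tables, chosen by gene symbol: the ligands Igf1 and Igf2, the receptors Igf1r and Igf2r, and the binding proteins Igfbp2, Igfbp3, Igfbp4, Igfbp5, Igfbp6 and Igfbp7. Total RNA, depleted of ribosomal RNA, was sequenced from 9 libraries, 3 each at day 0, day 4 and day 7. All cells came from the calvaria (skull cap) of C57BL/6 (C57BL/6J in the study's methods) mouse pups at postnatal day 2 to 3. Day 0 cells were confluent and undifferentiated, and day 4 and day 7 cells had been kept for that many days in mineralization medium, which contains ascorbic acid and β-glycerol phosphate. The study describes the 3 libraries of a stage as biological replicates, and its methods use serum-containing medium. They do not say whether the sequenced cells were wild type or carried the ColI-GFP reporter, whose promoter drives GFP mainly in mature osteoblasts. Mineralized cultures were harvested with collagenase I before trypsin and the others with trypsin alone, so harvest and stage cannot be told apart. The cells are primary cultures and not a pure line, and in bulk RNA fewer cells of a type cannot be told apart from less RNA per cell.

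IGF-1 and IGF-2 are small secreted hormones that act mostly through IGF1R, a receptor tyrosine kinase that signals through IRS adaptors, PI3K, Akt and mTOR. IGF2R, the cation-independent mannose 6-phosphate receptor, takes up IGF-2 for breakdown in lysosomes and does not signal as a kinase. The binding proteins hold IGFs in the fluid around cells and in the matrix, and proteases such as PAPP-A release the ligand by cutting them. Bone matrix is a rich store of IGFs, and osteoblasts make ligands, receptors and most of the binding proteins themselves.

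Reads assigned to genes numbered 7741204 to 14013219 at day 0, 32820610 to 37306090 at day 4 and 10675858 to 15622755 at day 7, and the member with the fewest reads, Igfbp6, had 116 in its shallowest library. No pair of libraries of a stage agreed within counting noise. A set of 6 genes that resemble ribosomal RNA took 0.182% to 19.6% of the reads, most in day 0 replicate 3 (19.6%) and day 7 replicate 2 (12.2%). Their share enters every library total, and only some results are also given with these genes left out of it. Day 4 values stand in tables made apart from those of day 0 and day 7, so day 4 was compared by the ranges of the libraries alone, and stage and table cannot be told apart there. Of 9 osteoblast markers, 8 were higher at day 7 than at day 0, and Col1a1, a collagen I chain, stood at 1751 to 2470 RPKM at day 0 and 4879 to 6323 RPKM at day 7. Bglap (osteocalcin) and Dmp1, which mark mature osteoblasts and osteocytes, lay under 1 RPKM in every day 0 library.

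Levels are given as RPKM (reads scaled to the library total and to transcript length), which can be compared between genes. Changes between day 7 and day 0 are log2 fold changes of CPM (reads scaled to the library total alone) with a pseudocount of 0.5, tested with limma over 12712 genes with Benjamini-Hochberg (BH) adjustment and a threshold of 0.05. By this test 3 of the 10 members were higher at day 7 (Igfbp3, Igfbp4 and Igfbp6), against 12.6% of all genes, and 2 were lower (Igf2r and Igfbp2), against 18.6% of all genes. The median log2 change was -0.03 over the members and -0.11 over all genes. Scaling by median of ratios moved the median of all genes by 0.10, and the split of calls over all genes went from 1602 higher and 2369 lower to 2827 higher and 2629 lower. Relative to the median of all genes the called members changed by -1.33 (Igfbp2), -0.96 (Igf2r), 1.11 (Igfbp6), 0.89 (Igfbp3) and 0.76 (Igfbp4) on the log2 scale. The plot of member levels by day shows the 10 genes library by library.

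**Figure D1:**
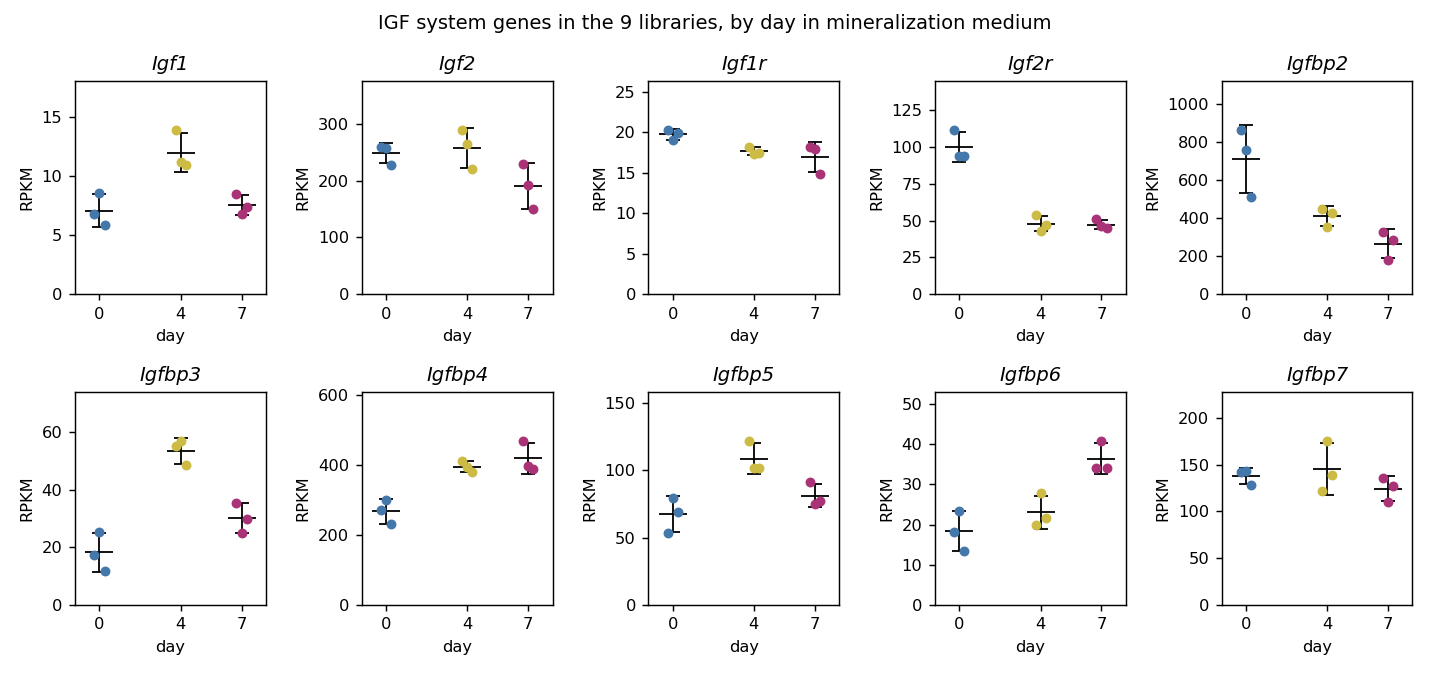
RPKM of the 10 IGF system genes (y axis, a separate linear scale for each gene, starting at 0) against days in mineralization medium (x axis). Each point is 1 library, and the black bars are the mean and SD of 3 libraries. Igfbp2 and Igf2r were highest at day 0, Igf1, Igfbp3 and Igfbp5 at day 4, and Igfbp4 and Igfbp6 had their highest means at day 7.

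The binding proteins held the most abundant transcripts of the system and changed places during differentiation. Igfbp2, which binds IGF-2 with preference and carries an integrin-binding motif, is encoded at chr1:72824503-72852474 on the plus strand (GRCm38). Igfbp2 stood at 862, 760.1 and 512 RPKM in the 3 day 0 libraries, at 449.5, 353 and 429 RPKM at day 4, and at 329, 181 and 283.5 RPKM at day 7. Every day 0 library was above every day 4 library, and every day 4 library was above every day 7 library. Between day 0 and day 7 its log2 fold change was -1.44 ± 0.19 (SE; limma BH-adjusted p = 2.12e-08), a 2.71-fold lower level, with a 95% interval of -1.82 to -1.06. Leaving out any 1 of the 6 libraries gave log2 fold changes from -1.66 to -1.19, all past the threshold.

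Day 0 replicate 1 and day 7 replicate 2, which held the highest and the lowest Igfbp2, also held the highest and the lowest Col2a1, the main collagen of cartilage: Col2a1 was at 419.8, 140.2 and 158 RPKM at day 0, 145, 33.9 and 64.3 RPKM at day 4, and 92.8, 29.2 and 38.5 RPKM at day 7. Within each of the later stages both genes also ranked the libraries alike, with replicate 1 highest, replicate 3 next and replicate 2 lowest. Within day 0 the ranks differed. From replicate 2 to replicate 3 of that stage Igfbp2 was lower while Col2a1 was slightly higher. Day 0 replicate 3 was the library with the largest share of rRNA-like reads. Of the 7 chondrocyte markers, 4 were lower at day 7 and 2 were higher. The latter were Col11a2 (log2 fold change 3.46) and Acan (1.06, past the threshold in 13 of 21 settings). The summed level of the 7 markers ran from 172 to 498 RPKM at day 0, 137 to 239 RPKM at day 4 and 178 to 280 RPKM at day 7. None of the 7 was at 0 in all libraries. Their part in the fall of Igfbp2 was not tested. Without day 0 replicate 1 the log2 fold change of Igfbp2 was -1.28, and without day 7 replicate 2 it was -1.19.

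Igfbp4, a soluble binding protein best known for inhibiting IGF action until PAPP-A cuts it, moved the other way. The gene lies at chr11:99041244-99054392 on the plus strand. Igfbp4 read 272, 300.0 and 230.1 RPKM at day 0, 412, 394 and 381 RPKM at day 4, and 469.5, 398 and 390.2 RPKM at day 7. All libraries of both later stages were above all day 0 libraries, while day 4 and day 7 overlapped. Its log2 fold change from day 0 to day 7 was 0.65 ± 0.17 (SE; limma BH-adjusted p = 0.00266), and this call was lost when genes with any reads were tested (adjusted p = 0.0501). Within a library the ratio of Igfbp2 to Igfbp4 went from 2.64 ± 0.48 (SD, n = 3) at day 0 to 1.04 ± 0.12 at day 4 and 0.627 ± 0.150 at day 7, a ratio that no scaling of the library total can alter. The 3 stages did not overlap in this ratio.

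The less abundant binding proteins differed in when they were high. Igfbp6, which binds IGF-2 far more tightly than IGF-1, is encoded at chr15:102144362-102149511 on the plus strand. Igfbp6 stood at 18.2, 23.4 and 13.5 RPKM at day 0, 19.8, 27.8 and 21.6 RPKM at day 4, and 34.2, 40.8 and 34.1 RPKM at day 7. Day 7 lay above both earlier stages, which overlapped each other, and the log2 fold change from day 0 to day 7 was 1.00 ± 0.18 (SE; limma BH-adjusted p = 1.4e-05).

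Igfbp3, the main carrier of IGFs in blood together with the acid-labile subunit, lies at chr11:7206086-7213923 on the minus strand. Igfbp3 was at 17.4, 25.3 and 11.9 RPKM at day 0, was at 55.3, 57.1 and 48.5 RPKM at day 4, and was at 35.4, 24.9 and 30.0 RPKM at day 7. The day 4 libraries stood above all others, with a mean 2.94 times that of day 0. From day 0 to day 7 the log2 fold change was 0.77 ± 0.18 (SE; limma BH-adjusted p = 0.000777), although 1 day 7 library lay just under the highest day 0 library on the deposited scale. That overlap was gone under TMM scaling (trimmed mean of M values). Without day 0 replicate 3 the log2 change was 0.50, and with quality weights per library it was 0.37.

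Igfbp5, which binds to bone mineral and matrix, is at chr1:72857932-72874884 on the minus strand, 5457 bases from Igfbp2, its neighbour in opposite orientation. Igfbp5 read 53.0, 79.6 and 68.9 RPKM at day 0, 122, 102 and 102 RPKM at day 4, and 91.2, 74.9 and 77.5 RPKM at day 7. The day 4 libraries were above those of both other stages, whereas day 0 and day 7 overlapped and differed by a log2 fold change of 0.29 ± 0.16 (SE; limma BH-adjusted p = 0.184). DESeq2 on the recovered reads called it higher (adjusted p = 0.0244), 1 of 21 settings to do so. The neighbours Igfbp2 and Igfbp5 thus had different time courses.

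Igfbp7, which binds IGFs weakly and is also called IGFBP-rP1, lies at chr5:77349240-77408041 on the minus strand and shares 85 exonic bases (7.0%) with Polr2b on the other strand. Igfbp7 was at 142.5, 144 and 128 RPKM at day 0, 121, 175 and 139 RPKM at day 4, and 136, 109.6 and 127 RPKM at day 7, so all 3 stages overlapped. Its log2 fold change was -0.15 ± 0.15 (SE; limma BH-adjusted p = 0.477), and it passed the threshold as lower with the rRNA-like genes out of the total (log2 fold change -0.23, adjusted p = 0.0302). Blood vessels are a known source of Igfbp7. The 8 endothelial markers summed to 0.117 to 0.479 RPKM across the libraries, with Tie1 and Emcn listed at 0 in all of them. The part of endothelial cells in the Igfbp7 values was not tested.

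Summed over the 6 binding proteins the level was 1220 ± 222 RPKM (SD, n = 3) at day 0, 1137 ± 38 RPKM at day 4 and 956 ± 134 RPKM at day 7. Day 7 lay below day 4. Without Igfbp7 these 2 stages overlapped, at 933.8 to 1058 RPKM at day 4 and 719.5 to 959.3 RPKM at day 7. On the deposited scale day 0 overlapped with both later stages, and this overlap rested on day 0 replicate 3, at 964.6 RPKM beside 1365 and 1332 RPKM in the other day 0 libraries. The latter lay above every day 4 library (1109 to 1180 RPKM) and every day 7 library (829 to 1095 RPKM). With the rRNA-like genes out of the library total the sum ran from 1199 to 1428 RPKM at day 0 and from 944 to 1114 RPKM at day 7, with no overlap, while under TMM scaling, which sets the bulk of genes level between libraries, it ran from 1071 to 1198 RPKM and from 917 to 1086 RPKM, with overlap. The makeup of the sum differed between all stages. At day 0 Igfbp2 supplied 57.8% ± 5.1 (SD, n = 3) of it, at day 4 36.1% ± 3.7 and at day 7 27.3% ± 4.8. Over the same stages the share of Igfbp4 went from 22.1% ± 2.0 to 34.8% ± 0.8 and 44.1% ± 3.5. Neither share overlapped between any pair of stages. The stacked levels per library show this exchange.

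**Figure D2:**
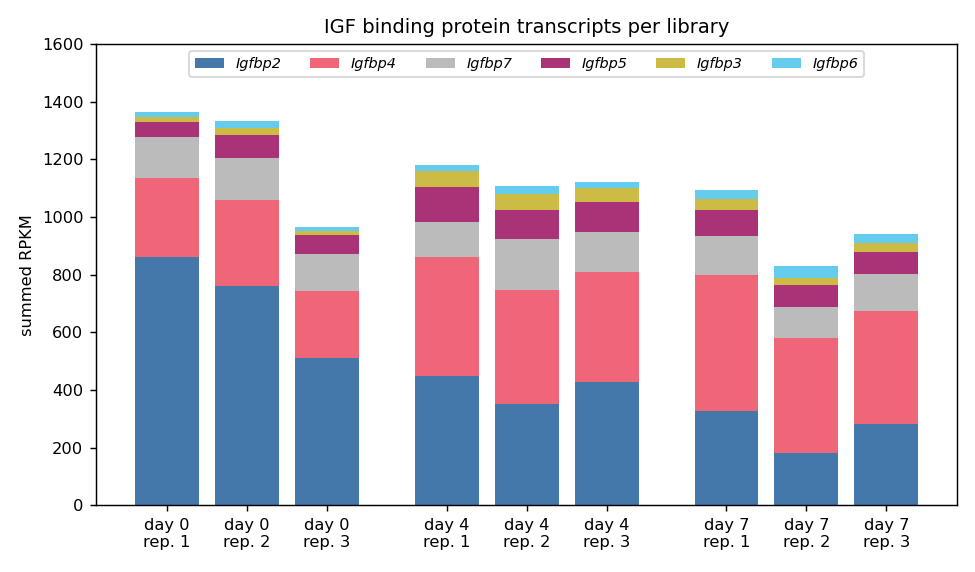
Summed RPKM of the 6 IGF binding proteins (y axis, starting at 0) in each of the 9 libraries (x axis), with 1 colour for each gene. The Igfbp2 block shrank from 862, 760.1 and 512 RPKM at day 0 to 329, 181 and 283.5 RPKM at day 7, and the Igfbp4 block was the largest in all 3 day 7 libraries.

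Of the receptors, Igf2r changed past the threshold and Igf1r did not. Igf2r is encoded at chr17:12682406-12769664 on the minus strand and is imprinted in the mouse, with expression from the maternal copy in most tissues. Igf2r stood at 111, 94.0 and 93.8 RPKM at day 0, at 53.6, 43.1 and 47.0 RPKM at day 4, and at 50.7, 46.1 and 44.8 RPKM at day 7. The day 0 libraries were above all 6 later libraries, and day 4 and day 7 overlapped, with means of 47.9 and 47.2 RPKM. The log2 fold change from day 0 to day 7 was -1.08 ± 0.16 (SE; limma BH-adjusted p = 3.73e-07), and it lay between -1.15 and -0.88 in all 21 settings.

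Igf1r, the signalling receptor at chr7:67952827-68233668 on the plus strand, read 20.3, 19.03 and 19.9 RPKM at day 0, 18.2, 17.3 and 17.45 RPKM at day 4, and 18.2, 17.9 and 14.9 RPKM at day 7. The day 0 libraries lay just above the later ones on the deposited scale, but the stages overlapped under TMM scaling, and the log2 fold change from day 0 to day 7 was -0.22 ± 0.15 (SE; limma BH-adjusted p = 0.296). With quality weights per library Igf1r passed as lower (log2 fold change -0.26, adjusted p = 0.00761). The RPKM of Igf1r rests on a length of 4489 bases, 26.7% of its exonic length in GENCODE M21 (16791 bases), whereas the lengths of the other members were 100% to 101% of theirs. Its level beside other genes therefore depends on the gene model, while its change between stages compares the same stretch.

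Within a library the ratio of Igf2r to Igf1r was 5.05 ± 0.41 (SD, n = 3) at day 0, 2.71 ± 0.23 at day 4 and 2.79 ± 0.22 at day 7. The day 0 ratios lay above all later ones, and day 4 and day 7 overlapped.

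Igf2 outnumbered Igf1 throughout. Igf2, expressed from the paternal copy in most fetal tissues, lies at chr7:142650766-142666816 on the minus strand. Gm49394, a gene model of the same strand that covers 62.8% of the exonic bases of Igf2 in GENCODE M21, was not among the genes analysed here. Igf2 stood at 259.8, 258 and 228 RPKM at day 0, at 289, 264.5 and 219.9 RPKM at day 4, and at 229, 192 and 149 RPKM at day 7. The stages overlapped on the deposited scale, while under TMM scaling and with the rRNA-like genes out of the library total the 3 values of day 7 were all under the lowest of day 0. The log2 fold change from day 0 to day 7 was -0.40 ± 0.17 (SE; limma BH-adjusted p = 0.0719), a value that did not pass. It passed as lower in 5 of 21 settings: with the rRNA-like genes out of the total (log2 fold change -0.48, limma BH-adjusted p = 0.0192), with robust variances (adjusted p = 0.0216), with quality weights per library (adjusted p = 3.14e-05), without day 0 replicate 3 (adjusted p = 0.0247) and without day 7 replicate 1 (adjusted p = 0.0445). It did not pass under TMM scaling (log2 fold change -0.30, adjusted p = 0.11).

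Igf1, the ligand induced by growth hormone in liver and by parathyroid hormone in bone cells, lies at chr10:87858265-87937042 on the plus strand. Igf1 was at 6.78, 8.57 and 5.84 RPKM at day 0, 13.9, 11.1 and 10.9 RPKM at day 4, and 8.44, 6.80 and 7.36 RPKM at day 7. The day 4 libraries were above all others, with a mean 1.70 times that of day 0, and day 0 and day 7 overlapped. The log2 fold change from day 0 to day 7 was 0.10 ± 0.16 (SE; limma BH-adjusted p = 0.671), and its sign turned without day 0 replicate 3 (-0.02) and with quality weights per library (-0.12).

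Macrophages also make IGF-1. All 11 macrophage markers were higher at day 7 than at day 0. Their sum ran from 52.3 to 87.5 RPKM at day 0, 103.6 to 119 RPKM at day 4 and 109 to 143 RPKM at day 7, and Lyz2, the most abundant, went from 37.1 to 63.9 RPKM at day 0 to 66.3 to 89.2 RPKM at day 7. Csf1r, a defining receptor of the lineage, went from 0.672 to 1.39 RPKM at day 0 to 1.73 to 2.22 RPKM at day 7 (log2 fold change 0.98, limma BH-adjusted p = 0.000466). The part of these cells in the Igf1 values was not tested.

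Igf2 made up 97.3% ± 0.4 (SD, n = 3) of the summed ligand RPKM at day 0, and 95.5% ± 0.4 and 96.1% ± 0.7 at the later stages. The ligand sum was 255.5 ± 18.8 RPKM at day 0, 269.7 ± 36.3 RPKM at day 4 and 198 ± 41 RPKM at day 7. All stages overlapped on the deposited scale, where day 0 replicate 3, at 234 RPKM beside 267 and 266 RPKM in the other day 0 libraries, made the overlap with day 7 (157 to 238 RPKM). With the rRNA-like genes out of the total the sum was 279 to 290.5 RPKM at day 0 and 157 to 242 RPKM at day 7, with no overlap, and under TMM scaling it overlapped. Each library held 3.90 to 6.03 RPKM of the 6 binding proteins for every RPKM of ligand, and this ratio also overlapped between all stages. The ratio of Igf2 to Igf2r ran from 2.33 to 2.74 at day 0 and from 4.67 to 6.14 at day 4, and lay between 3.33 and 4.52 at day 7, with no overlap between stages.

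**Figure D3:**
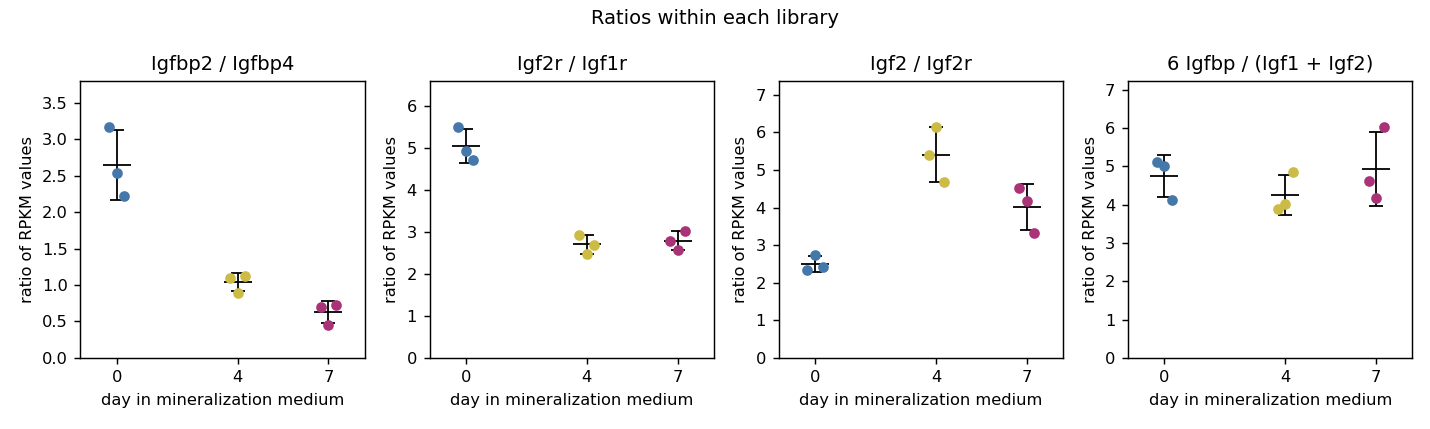
Ratios of RPKM values formed within each library (y axes, each starting at 0) against days in mineralization medium (x axis), with 1 point for each library and black bars for the mean and SD of 3 libraries. Igfbp2 over Igfbp4 had means of 2.64, 1.04 and 0.627, Igf2r over Igf1r was 5.05 at day 0 and 2.71 to 2.79 later, and the ratio of binding proteins to ligands overlapped between stages.

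Ordered by mean RPKM, day 0 began with Igfbp2 at 711 ± 179.9 RPKM (SD, n = 3), Igfbp4 at 267 ± 35 RPKM and Igf2 at 248 ± 18 RPKM, of which Igfbp4 and Igf2 did not differ beyond their spread. Igfbp7, Igf2r and Igfbp5 followed with no overlap between neighbours, then Igf1r, Igfbp6 and Igfbp3 at 19.7, 18.4 and 18.2 RPKM, which overlapped, and Igf1 last at 7.06 ± 1.39 RPKM. At day 4 Igfbp2 (410.4 ± 50.7 RPKM) and Igfbp4 (396 ± 15 RPKM) overlapped at the top, as did Igfbp7 with Igfbp5 and Igfbp3 with Igf2r further down. At day 7 Igfbp4 led at 419 ± 44 RPKM, clear of Igfbp2 at 264 ± 76 RPKM, which overlapped with Igf2 at 190.2 ± 40.1 RPKM. By these RPKM values Igf1 was the least abundant member at every stage, next below Igf1r at day 4 and day 7. The places of Igf1r and Igf1 in this order depend on the gene model of Igf1r, as given above.

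By non-overlap of the 3 libraries a stage, 4 members were higher at day 4 than at day 0 (Igf1, Igfbp3, Igfbp4 and Igfbp5), where 21.4% of all genes were, and 3 were lower (Igf1r, Igf2r and Igfbp2), where 22.0% were. From day 4 to day 7, 1 member was higher (Igfbp6), against 13.7% of all genes, and 4 were lower (Igf1, Igfbp2, Igfbp3 and Igfbp5), against 25.0%. From day 0 to day 7, 2 were higher (Igfbp4 and Igfbp6), against 16.9%, and 3 were lower (Igf1r, Igf2r and Igfbp2), against 25.4%. These counts are on the deposited scale, and under TMM scaling Igf1r overlapped between day 0 and day 4. Under TMM scaling 4 members were higher at day 7 than at day 0 (Igfbp3, Igfbp4, Igfbp5 and Igfbp6), against 28.9% of all genes, and 3 were lower (Igf2, Igf2r and Igfbp2), against 25.1%. With the rRNA-like genes out of the total 3 were higher (Igfbp3, Igfbp4 and Igfbp6), against 16.4%, and 4 were lower (Igf2, Igf2r, Igfbp2 and Igfbp7), against 41.4%. With 10 members these shares are counts of a few genes and were not set against the background by a test. In the exact 2-sided permutation test, whose smallest p with 3 libraries against 3 is 0.1, Igf1r, Igf2r, Igfbp2, Igfbp4 and Igfbp6 reached 0.1, Igf2, Igfbp3 and Igfbp7 gave 0.2, Igfbp5 gave 0.3 and Igf1 gave 0.7.

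**Figure D4:**
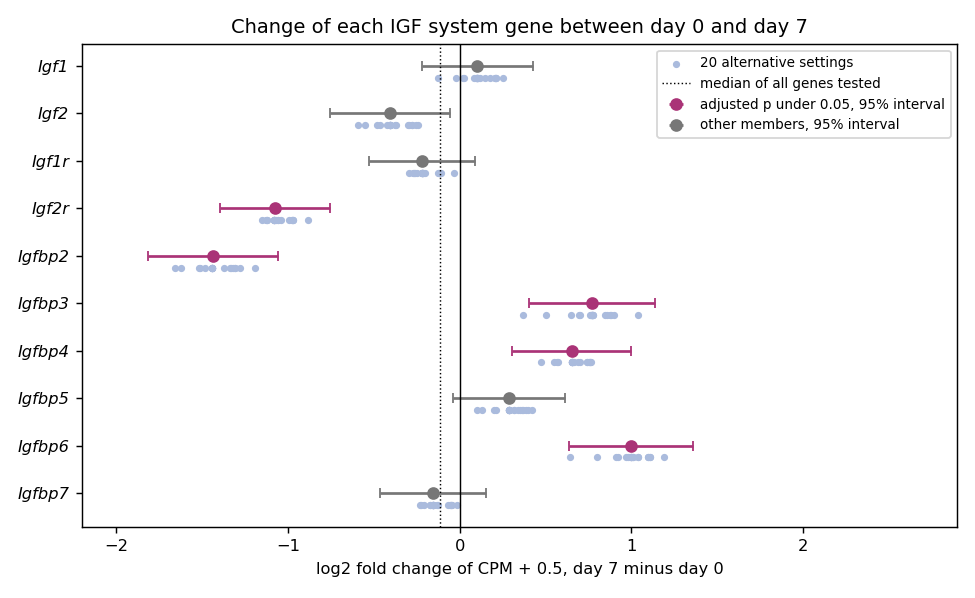
Log2 fold change of CPM + 0.5 from day 0 to day 7 (x axis) for each member (y axis), with 95% intervals from limma in purple where the adjusted p was under 0.05 and in grey otherwise. Blue points below each are the 20 alternative settings, and the dotted line is the median of all genes tested (-0.11). Igfbp2 (-1.44) and Igf2r (-1.08) lay left of 0 and Igfbp3, Igfbp4 and Igfbp6 (0.77, 0.65 and 1.00) right of 0 in every setting.

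The promoters of the 5 members that passed the test are shown with the letters of common promoter elements. Each is the 150 bases before the RefSeq start of the gene (GRCm38.p6), 5′ to 3′, with capitals on matches, on either strand, to the GC box (GGGCGG), the TATA box (TATAAA) and the CCAAT box (CCAAT). Over all 32851 promoter windows of this length, 28.6%, 7.6% and 24.5% held these letters.
Igfbp2 promoter, chr1:72824330-72824479, plus strand: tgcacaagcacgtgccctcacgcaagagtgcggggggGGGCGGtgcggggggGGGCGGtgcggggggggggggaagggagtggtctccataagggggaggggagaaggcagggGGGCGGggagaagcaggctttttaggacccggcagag
Igf2r promoter, chr17:12769707-12769856, minus strand: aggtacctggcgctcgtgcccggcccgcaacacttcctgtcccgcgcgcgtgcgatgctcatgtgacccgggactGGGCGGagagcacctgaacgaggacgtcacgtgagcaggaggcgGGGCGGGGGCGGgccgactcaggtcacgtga
Igfbp3 promoter, chr11:7213924-7214073, minus strand: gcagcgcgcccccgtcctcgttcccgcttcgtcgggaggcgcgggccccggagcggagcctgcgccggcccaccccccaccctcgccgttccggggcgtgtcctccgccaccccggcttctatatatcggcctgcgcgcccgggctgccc
Igfbp4 promoter, chr11:99041094-99041243, plus strand: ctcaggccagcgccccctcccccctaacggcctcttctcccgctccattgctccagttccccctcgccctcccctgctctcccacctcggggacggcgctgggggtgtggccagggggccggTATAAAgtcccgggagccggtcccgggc
Igfbp6 promoter, chr15:102144036-102144185, plus strand: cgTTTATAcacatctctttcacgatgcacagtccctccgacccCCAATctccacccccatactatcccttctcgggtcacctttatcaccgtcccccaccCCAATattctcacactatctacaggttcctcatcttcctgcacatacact
The windows of Igfbp2 and Igf2r each held 3 GC boxes and no TATA box. Those of Igfbp3, Igfbp4 and Igfbp6 held no GC box, Igfbp4 and Igfbp6 each held 1 match to the TATA box letters, and Igfbp6 also held 2 CCAAT boxes. The TATA box match of Igfbp6 was in reverse orientation, at the end of the window furthest from the start. That RefSeq start lies 176 bases from the first base of Igfbp6 in GENCODE M21. The Runx core (TGTGGT), present in 8.4% of all windows, was in none of the 5. The windows held 9, 19, 23, 11 and 5 CpG dinucleotides in the order printed, against a median of 4 over all windows. Igfbp2 has a second RefSeq start, not shown, whose window held 0 GC boxes. GC boxes also stood in windows of members that did not pass the test, with 4 in Igfbp7, 2 in Igf1r and 1 and 2 at 2 of the 4 starts of Igf2. Such letter matches describe the sequence and do not show that a factor binds there.

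Genes around the system were read from 9 lists with 93 genes, of which 84 could be tested. Of these, 17 were higher and 18 lower at day 7, with a median log2 fold change of -0.10, beside 12.6% higher, 18.6% lower and -0.11 over all genes. The same all-gene shares are the background for every list count that follows. Among the other ligands, receptors and carriers, Ins1, Ins2 (insulin) and Igfbp1 had no read in any library, which allows up to 0.388 CPM in the shallowest. Igfbpl1 and Insrr had at most 1 and 7 reads, and Igfals, the acid-labile subunit, stayed between 0.139 and 0.515 RPKM. Insr, the insulin receptor, was at 5.70 ± 0.0078 RPKM (SD, n = 3) at day 0 and 4.58 ± 0.25 RPKM at day 7, with a log2 fold change of -0.31 (limma BH-adjusted p = 0.126). Tmem219, described as a receptor for IGFBP-3, was at 7.37 ± 1.59 RPKM at day 0 and 8.47 ± 0.49 RPKM at day 7, a log2 fold change of 0.22 (limma BH-adjusted p = 0.394).

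Of the 7 tested genes for proteases that cut binding proteins and for their inhibitors, 4 were higher, 1 was lower and 2 did not pass. Pappa, the pappalysin that cuts IGFBP-4, read 18.1, 15.2 and 13.7 RPKM at day 0 and 20.6, 11.6 and 19.1 RPKM at day 7, with overlap and a log2 fold change of 0.09 (limma BH-adjusted p = 0.746). Pappa2, which cuts IGFBP-3 and IGFBP-5, read 40.5, 35.0 and 31.5 RPKM at day 0, 23.0, 15.0 and 19.7 RPKM at day 4 and 16.2, 8.65 and 12.2 RPKM at day 7. It fell by 1.56 on the log2 scale from day 0 to day 7 (limma BH-adjusted p = 1.87e-10). Stc1 and Stc2, the stanniocalcins that inhibit pappalysins, rose. Stc2 went from 6.72 ± 1.25 RPKM (SD, n = 3) at day 0 to 12.4 ± 1.3 RPKM at day 4 and 11.7 ± 0.3 RPKM at day 7, a log2 fold change of 0.81 (limma BH-adjusted p = 0.000102). Stc1 was at 0.419 to 0.536 RPKM at day 0, 2.89 to 5.75 RPKM at day 4 and 0.837 to 2.29 RPKM at day 7, highest at day 4 like Igf1, Igfbp3 and Igfbp5, with a log2 fold change of 1.44 (limma BH-adjusted p = 1.44e-05).

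Htra1, a serine protease of the matrix, rose from 88.8 ± 12.4 RPKM (SD, n = 3) at day 0 to 135.5 ± 8.1 RPKM at day 7 (log2 fold change 0.62, limma BH-adjusted p = 0.00165), and Adam12, a membrane metalloprotease, rose from 8.04 ± 1.11 RPKM to 13.9 ± 0.7 RPKM (log2 fold change 0.80, limma BH-adjusted p = 5.93e-05). Adam9, of the same family, was at 47.5 ± 7.7 RPKM and 41.6 ± 1.2 RPKM, a log2 fold change of -0.18 (limma BH-adjusted p = 0.419), and Adam28 had at most 1 read in a library. Of 4 convertases, the enzymes that cut prohormones such as pro-IGF-2, 2 were higher. Pcsk6 made the largest rise of them, from 13.1, 19.5 and 16.1 RPKM at day 0 to 22.2, 28.5 and 25.4 RPKM at day 4 and 63.1, 63.5 and 54.5 RPKM at day 7, with a log2 fold change of 1.90 (limma BH-adjusted p = 4.06e-14).

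Downstream of Igf1r, 3 of 24 genes of the adaptor and PI3K-Akt list were higher and 8 were lower, beside 12.6% and 18.6% of all genes. The median log2 fold change of the list was -0.26, against -0.11 over all genes. Of those called, Irs1, Akt1 and Pik3ca held least well, passing in 12, 13 and 13 of 21 settings. The largest rise was that of Grb14, an adaptor that inhibits insulin-type receptors, from 1.64 ± 0.16 RPKM (SD, n = 3) at day 0 to 4.89 ± 0.97 RPKM at day 7 (log2 fold change 1.53, limma BH-adjusted p = 1.19e-09). The largest fall was that of Pik3r3, a regulatory subunit of PI3K, from 9.64 ± 1.88 RPKM to 3.45 ± 0.45 RPKM (log2 fold change -1.45, limma BH-adjusted p = 2.35e-09). In the mTOR list 1 of 11 tested genes was higher and 1 lower, beside 9 that did not pass. Ddit4, an inhibitor of mTOR complex 1 also called REDD1, was at 59.9 ± 10.6 RPKM at day 0 and 85.0 ± 11.8 RPKM at day 7 (log2 fold change 0.51, limma BH-adjusted p = 0.0113), and Rptor, the raptor subunit, was at 4.79 ± 0.17 and 3.41 ± 0.28 RPKM (log2 fold change -0.49, limma BH-adjusted p = 0.0135). Of the 11 FoxO factors and targets, which Akt restrains, 2 were higher and 2 lower. Sesn3, a stress-response gene under FoxO control, fell from 60.5 ± 4.5 RPKM to 25.5 ± 3.5 and 13.2 ± 0.8 RPKM over the 3 stages (log2 fold change -2.18, limma BH-adjusted p = 2.1e-16), and Foxo6 rose from 0.0757 to 0.709 RPKM, both low levels (log2 fold change 1.75, limma BH-adjusted p = 2.77e-06).

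**Figure D5:**
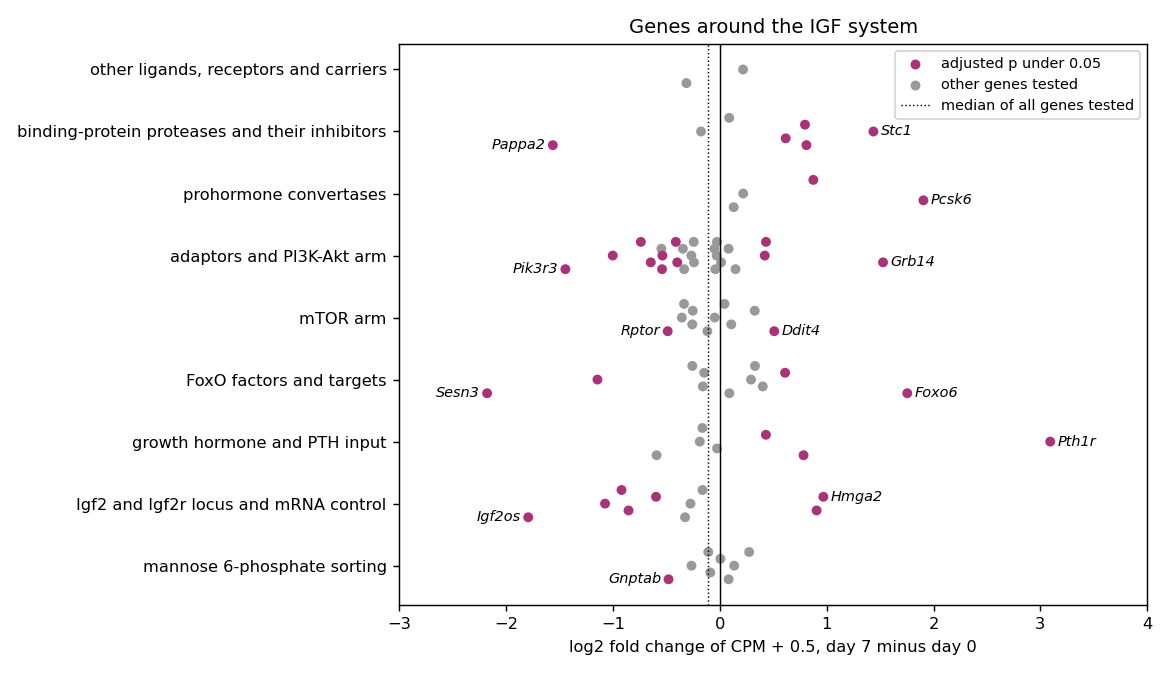
Log2 fold change of CPM + 0.5 from day 0 to day 7 (x axis) for the 84 tested genes of the 9 lists (y axis). Each point is 1 gene, in purple where the limma BH-adjusted p was under 0.05, and the largest change past the threshold in each direction is named. Pth1r (3.09) and Sesn3 (-2.18) lay at the ends, and the dotted line is the median of all genes tested (-0.11).

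Of the 7 tested genes for growth hormone and parathyroid hormone input, 3 were higher and none was lower. Pth1r, the parathyroid hormone receptor, read 36.9, 33.1 and 24.7 RPKM at day 0, 88.05, 99.05 and 107 RPKM at day 4, and 309, 244 and 252 RPKM at day 7, a log2 fold change of 3.09 (limma BH-adjusted p = 1.61e-21). It was higher at each stage than at the one before in every library, unlike Igf1, whose highest libraries were those of day 4. Jak2, the kinase of the growth hormone receptor, went from 11.5 ± 1.9 RPKM (SD, n = 3) at day 0 to 19.8 ± 1.9 RPKM at day 7 (log2 fold change 0.78, limma BH-adjusted p = 0.000113). Ghr, the growth hormone receptor, went from 3.75 ± 0.70 to 5.02 ± 0.26 RPKM (log2 fold change 0.43, limma BH-adjusted p = 0.0423) and passed in 14 of 21 settings. The transcription factors Stat5a (log2 fold change -0.03) and Stat5b (-0.16) and the feedback inhibitors Socs2 (-0.19) and Cish (-0.59) did not pass, and Prlr, the prolactin receptor, did not exceed 24 reads in a library. Socs2 had its highest libraries at day 4, 1.64 to 1.98 RPKM beside 0.717 to 1.08 RPKM at the other stages.

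At the Igf2 and Igf2r loci and among regulators of their mRNAs, 2 of 10 genes were higher and 5 lower. H19, the noncoding RNA imprinted opposite to Igf2, was at 1846 ± 444 RPKM (SD, n = 3) at day 0, 5171 ± 859.5 RPKM at day 4 and 3395 ± 298.5 RPKM at day 7, and rose by a log2 fold change of 0.91 (limma BH-adjusted p = 0.00056) between day 0 and day 7. Igf2os, on the strand opposite Igf2, fell from 2.28 ± 0.47 RPKM to 1.18 ± 0.25 and 0.608 ± 0.241 RPKM over the stages (log2 fold change -1.79, limma BH-adjusted p = 9e-09). It shares 98 exonic bases with Igf2, and without a stated strand setting of the counting the reads there cannot be told apart. Airn, the antisense RNA at Igf2r, shares no exonic base with it and was at 1.14 ± 0.12 RPKM at day 0 and 0.925 ± 0.189 RPKM at day 7 (log2 fold change -0.28, limma BH-adjusted p = 0.387). The largest rise in the list was that of Hmga2, a chromatin protein that promotes Igf2bp2 expression, at 3.78 ± 0.71 RPKM and 7.40 ± 0.64 RPKM (log2 fold change 0.97, limma BH-adjusted p = 7.7e-06). Of the 8 genes for mannose 6-phosphate sorting, the lysosomal delivery route that Igf2r serves, 1 was lower and 7 did not pass. The gene that fell was Gnptab, which adds the mannose 6-phosphate tag, from 5.94 ± 0.41 to 4.23 ± 0.24 RPKM (log2 fold change -0.48, limma BH-adjusted p = 0.0215).

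Across all 9 libraries and 9099 other genes with a mean of at least 10 CPM, the genes most like Igfbp2 by Pearson's r of log2 CPM were Tmem127 (r = 0.994), C130021I20Rik (0.992) and Dido1 (0.992). Of these, C130021I20Rik fell about as far, with mean levels of 17.5, 10.5 and 6.90 RPKM over the 3 stages and a log2 fold change of -1.34, while Tmem127 and Dido1 changed by -0.55 and -0.45. Those most like Igf2r were Msx2 (0.992), Lrrc28 (0.991) and Tln1 (0.987). Msx2, a homeobox factor of the skull, went from 38.0 RPKM at day 0 to 10.3 and 9.999 RPKM, so that it, like Igf2r, was lower by day 4 and then near level. Those most like Igfbp6 were Slc7a2 (0.989), Psmg4 (0.987) and Cryz (0.977). All points share the 3 stages and the library totals, so these values describe likeness in time course over 9 libraries.

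Markers of other cell types also moved. The 3 testable osteoclast markers of 7 were all higher at day 7. Acp5, the tartrate-resistant phosphatase, went from 0.398, 1.04 and 0.801 RPKM at day 0 to 8.31, 5.52 and 5.95 RPKM at day 7 (log2 fold change 2.74, limma BH-adjusted p = 3.05e-13). Ctsk, cathepsin K and the most abundant of the list, went from 99.8 to 133 RPKM at day 0 to 225 to 237 RPKM at day 7 (log2 fold change 0.95, limma BH-adjusted p = 2.44e-06), and Atp6v0d2, a proton pump subunit, also rose (log2 fold change 1.13, limma BH-adjusted p = 0.00119). Calcr, Dcstamp and Oscar had at most 7 reads in any library. Both testable skeletal muscle markers of 7 were higher at day 7: Des, desmin, with a log2 fold change of 2.36 (limma BH-adjusted p = 6.92e-10) and Acta1, the most abundant, with 0.93 (limma BH-adjusted p = 0.00259), and the list summed to at most 11.2 RPKM. Myod1, Myog and Ckm of the same list had at most 1, 3 and 2 reads in any library. The 6 adipocyte markers summed to at most 4.39 RPKM, and Pparg, the one with the highest mean, was at 1.09 ± 0.27 RPKM (SD, n = 3) at day 0 and 1.68 ± 0.15 RPKM at day 7 (log2 fold change 0.55, limma BH-adjusted p = 0.0822). Tek, the endothelial marker with the highest mean, ran from 0.0235 to 0.302 RPKM over the 9 libraries. Their part in the member values was not tested.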

How the data were processed

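RNA was sequenced from 9 libraries, 3 a stage. The authors aligned reads with STAR (2.0.4b) to GRCm38 (Ensembl), took unique alignments into gene counts by featureCounts, and deposited CPM and RPKM tables, 1 set for day 0 and day 7 and another for day 4. The strand setting of the counting is not given in the sources used here. The deposited CPM values were whole multiples of 1 read in 100% of cases (tolerance 0.01 reads), so reads per gene were recovered. A total of 276 repeated lines (273 in the day 4 tables) were identical and read once.

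A filter kept the 12712 genes whose CPM averaged 1 or more in the 6 libraries of day 0 and day 7, and their log2(CPM + 0.5) values were tested with limma 3.58.1 (R 4.3.3, trended prior, 42.9 prior and 4 residual degrees of freedom), with Benjamini-Hochberg adjustment and 95% intervals. A fold change on this scale understates the change of low genes. The p-values rest on the spread between libraries of a stage, with that of each gene drawn towards a trend over all genes. With 42.9 prior against 4 residual degrees of freedom, the trend carries most of the weight. A limit for 0 reads is 3 reads of the library total and covers counting error only. On simulated data limma recovered 99 of 100 genes changed by a log2 of 1 and 100 of 100 changed by a log2 of 2, with 8 false calls among 12712 genes. The simulation gave all genes the same dispersion and changed only genes above a higher CPM floor. It held no difference in rRNA-like share between libraries, so it gives no error rate for the real ones. edgeR 4.0.16 and DESeq2 1.42.0 ran on the recovered reads as alternatives. Coordinates are from GENCODE M21 and promoters from RefSeq, both GRCm38. All 158 symbols of the lists, the 10 members among them, matched 1 identifier each.

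The members and lists were chosen with earlier results of these data known. The text names all members, in each list the genes that rose and fell most among those called, every gene of 3 short lists, the most abundant marker of each cell type and the 3 genes most like each of the 3 members that changed most. Markers quoted beside them as defining, and Msx2 with its levels, were picked after their values were seen. So were Acp5, Atp6v0d2, Des, Acan, Col11a2, Runx2, Irs1, Akt1, Pik3ca and the markers named for having few reads or none.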

Additional observations from a re-analysis of the deposited data

How the results depend on the processing

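In 20 alternatives the calls of Igfbp2, Igf2r, Igfbp3 and Igfbp6 held in each, and Igfbp4 missed in 1. Igf1 reversed to -0.124 with quality weights and ran from -0.0229 (without day 0 replicate 3) to 0.252 with 1 library left out. The all-gene count higher, 1602, became 2827 with median-of-ratios scaling, 2773 with TMM, 2818 with edgeR, 2581 with DESeq2 and 3148 with TMM and voomWithQualityWeights. The count lower, 2369, became 5861 with quality weights, and 4524 with the rRNA-like genes out of the total, an alternative chosen after seeing the data. Under each of these last 2 the members lower numbered 4, with Igf2 added in both, Igf1r in the first and Igfbp7 in the second. The pathway genes lower went from 18 to 38 with quality weights and 34 with the rRNA-like genes out, and the genes higher from 17 to 27 with TMM and voomWithQualityWeights. Leaving out 1 library gave 1151 to 1631 genes higher and 1521 to 4699 lower, the most without day 0 replicate 3 and the fewest without day 0 replicate 2 (1554 without day 7 replicate 2), 3 members higher and 2 to 3 lower, and 11 to 20 pathway genes higher (11 without day 7 replicate 1) and 12 to 32 lower (32 without day 0 replicate 3). With the rRNA-like genes out, the binding protein sum moved from 1220 to 1342 RPKM at day 0, 1137 to 1182 RPKM at day 4 and 956 to 1001 RPKM at day 7, and the ligand sum at day 0 from 255.5 to 282.9 RPKM. With 1 library left out, 0 to 2 members changed rank at day 0, among Igf1r, Igfbp6 and Igfbp3, and 0 to 2 at day 4, where Igfbp2 and Igfbp4 changed places without day 4 replicate 3.

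Except where a weight or a changed total is the alternative itself, the cause of these shifts was not tested. Over all genes the replicate numbers showed no pairing of the samples. Same-numbered libraries of day 0 and day 7 correlated at -0.0172, -0.181 and -0.444, and none matched its own number best. These correlations used deviations from the stage means on the deposited scale, where the rRNA-like share differed between libraries. Single genes could differ, as Col2a1 was highest in replicate 1 and lowest in replicate 2 at all 3 stages. Among the members, Igf2, Igf1r, Igf2r and Igfbp2 were highest in replicate 1 at all 3 stages, and Igfbp6 in replicate 2. Igf2 also fell from replicate 1 to 2 to 3 at each stage. In the other members the highest replicate differed between stages. Whether same-numbered libraries shared a preparation is therefore not settled. With the number as a block 1463 genes were higher and 1950 lower, 3 members were higher and 2 lower, and 14 pathway genes were higher and 15 lower. Depth did not limit the members, but 3 libraries a stage limit the exact test, and day 4 was not tested against the other stages, which stand in other tables.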
